A study of Mus musculus with 7 samples.

Results

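Simple epithelial keratins are the filament proteins of single-layered epithelia such as liver, bile duct and gut. The 6 genes Krt7, Krt8, Krt18, Krt19, Krt20 and Krt23 were followed here through every probe set whose platform annotation names exactly one of them, which gave 8 probe sets of 45037 that are not controls, with 3 for Krt8 and 1 for each other gene. Livers of 4 mir-122 knockout mice and of 3 wild-type mice had been hybridised to Affymetrix mouse arrays, 1 array per animal. Values per array are given throughout for KO-03, KO-90, KO-91, KO-94 and for WT-27, WT-103, WT-104, each in this order. All 7 mice were 2 months old, of B6/129 background and carried no other allele or treatment that the labels name. The labels give neither the sex of the animals nor the design of the deletion, and the comparison asks how liver transcripts differ when miR-122, the most abundant microRNA of hepatocytes, is missing. Values are log2 expression values, so that a difference of 1 is a doubling, and differences are KO minus WT.

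Keratin filaments are obligate heteropolymers of a basic type II chain and an acidic type I chain. Adult hepatocytes are known for making a single pair, Krt8 (type II) with Krt18 (type I), whereas the cells lining bile ducts add Krt7 (type II) and Krt19 (type I). Krt20 is a type I keratin best known from gut epithelium, and Krt23 is a type I keratin that is scarce in healthy liver. In injured liver Krt8 and Krt18 are known to be induced in hepatocytes and can collect with the adaptor protein p62 in inclusions called Mallory-Denk bodies.

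Array medians lay between 4.65 and 4.72, and Pearson correlations across probe sets were 0.976 to 0.991 within KO, 0.985 to 0.990 within WT and 0.965 to 0.988 between them. Albumin, Alb, the main product of hepatocytes, read 14.59 to 14.67 in KO and 14.56 to 14.64 in WT livers. No probe set is named for Mir122, so the deletion itself could not be checked on these arrays. Detection calls were not used here. The arrays carry 27 control probe sets against Bacillus subtilis genes; the brightest of them in each liver, 4.71 to 5.23, served as a floor, and "at least" marks a difference in which WT arrays under the floor were raised to it. The next highest control lay at 3.71 to 4.11, so a level under the floor can still be signal. In these whole-liver samples more cells of a type and more RNA per cell cannot be told apart.

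Krt19 rose in KO livers and was the one keratin probe set of 8 to pass the test, where 1.61% of all probe sets were called, 1.29% higher and 0.32% lower. Krt8 and Krt18, the pair of the hepatocyte, and Krt23 had differences of 0.68 to 1.03 that did not pass, although every KO array lay above every WT array. Krt7 and Krt20 did not exceed the floor on any of the 7 arrays. The order KO above WT without overlap held for 6 of 8 keratin probe sets, against 7.25% of all probe sets, and an unadjusted p under 0.05 with KO higher for 6 of 8, against 7.8%. For the lower direction the shares over all probe sets were 5.53% without overlap and 5.51% at an unadjusted p under 0.05. These counts are not independent of each other, since 3 of the 6 probe sets report Krt8. The median difference was 0.81 over the 8 keratin probe sets and -0.0047 over all probe sets, and no keratin probe set was called lower.

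**Figure D1:**
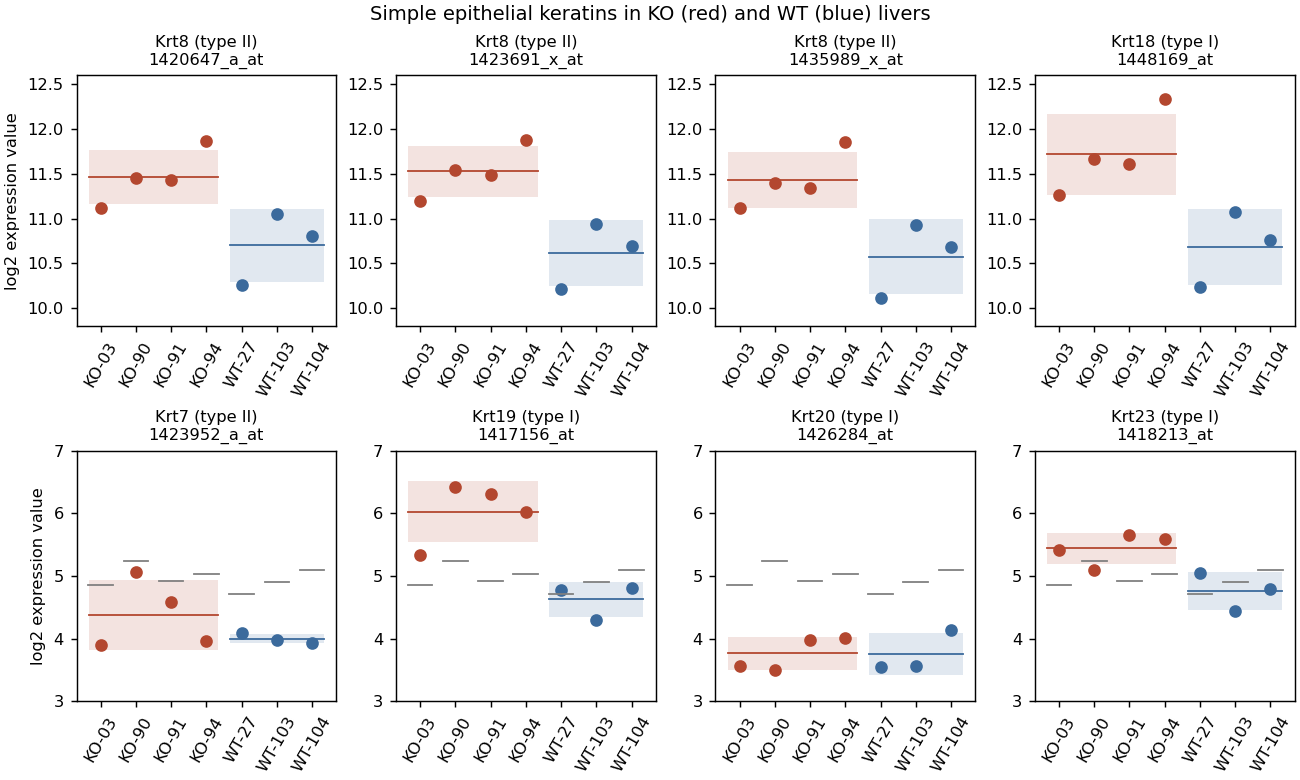
Log2 expression value of each of the 8 keratin probe sets (1 panel each) in the 4 KO (red, left) and 3 WT (blue, right) arrays; points are arrays, lines are group means, shaded bands are 1 SD either side and grey bars are the floor of that array. The lower row has a lower axis range than the upper row; Krt8, Krt18, Krt19 and Krt23 show KO above WT without overlap, and Krt7 and Krt20 lie at or under the floor.

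The hepatocyte pair was read first. Krt8, the type II partner, read 11.12, 11.46, 11.43 and 11.86 in the 4 KO livers, against 10.25, 11.05 and 10.81 in the 3 WT livers (probe set 1420647_a_at, the brightest of 3). KO-94 was the highest and WT-27 the lowest, and the lowest KO array, KO-03, lay only 0.07 above the highest WT array, WT-103. The mean was 11.47 ± 0.30 (SD, n = 4) in KO and 10.70 ± 0.41 (SD, n = 3) in WT, a difference of 0.76 ± 0.22 (SE), or 1.70-fold, with a 95% interval of 0.26 to 1.27 (limma adjusted p = 0.161). The other probe sets, 1423691_x_at and 1435989_x_at, differed by 0.91 and 0.86 (limma adjusted p = 0.0769 and 0.123). Their gaps between the lowest KO and the highest WT array were 0.25 and 0.19. The suffix _x_at marks probe sets with probes that can also bind other transcripts, and Krt8 is known to have processed pseudogenes, so the 3 readings are not separate evidence.

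Krt18, the type I partner of Krt8, read 11.26, 11.66, 11.61 and 12.34 in the 4 KO livers, against 10.23, 11.07 and 10.76 in the 3 WT livers. The arrays stood in the same order as for Krt8, from WT-27 at the bottom to KO-94 at the top. The mean was 11.72 ± 0.45 (SD, n = 4) in KO and 10.69 ± 0.42 (SD, n = 3) in WT, a difference of 1.03 ± 0.27 (SE), or 2.05-fold, with a 95% interval of 0.42 to 1.64 (limma adjusted p = 0.119). Krt8 and Krt18 had a Pearson r of 0.992 over the 7 arrays. This r is a description, since the arrays fall into 2 genotypes and both readings share each array's RNA and normalization.

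The pair's differences changed in size, and not in direction, when single animals were left out. Relative to the WT mean, Krt18 stood at 0.58, 0.98, 0.92 and 1.65 in the 4 KO livers, and at -0.46, 0.38 and 0.07 in the 3 WT livers. Without KO-94 the Krt18 difference was 0.83, and without WT-27 it was 0.81 (limma adjusted p = 0.171 and 0.336). Without KO-03 the Krt18 difference was 1.18, and without WT-103 it was 1.23 (limma adjusted p = 0.0528 and 0.180). Over all probe sets the number called higher, 582 with all arrays, was 404, 238, 1112 and 172 without KO-94, WT-27, KO-03 and WT-103. Without WT-27 the Krt8 probe sets differed by 0.54, 0.71 and 0.63, and without WT-103 by 0.94, 1.07 and 1.03. One Krt8 probe set, 1423691_x_at, passed without KO-03, the KO animal nearest the WT arrays (difference 1.02, limma adjusted p = 0.0380).

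The Krt18 difference was set against that of Krt8 on the same arrays, and did not pass after adjustment. Measured within each array and relative to the WT mean, Krt18 exceeded Krt8 (1420647_a_at) by 0.16, 0.23, 0.20 and 0.49 in the 4 KO livers, against -0.00, 0.04 and -0.03 in the 3 WT livers. All KO arrays lay above all WT arrays on this scale, and the 2 differences were 0.27 apart (exact two-sided permutation p = 0.0286 over 35 splits, the smallest possible, adjusted p = 0.0857 over 15 pairs of keratins). Against the other Krt8 probe sets the same difference was 0.12 and 0.18 (exact permutation p = 0.400 and 0.0571), so it depends on which Krt8 probe set is read.

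**Figure D2:**
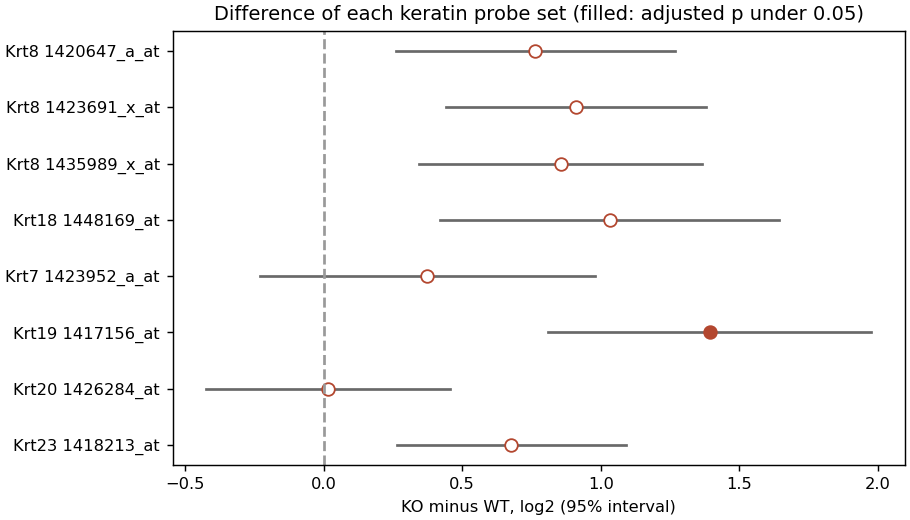
KO minus WT difference (log2, horizontal axis) of each keratin probe set, with its 95% interval from limma as a line; filled points passed an adjusted p under 0.05. Krt19 at 1.39 is filled, the 3 Krt8 probe sets, Krt18 and Krt23 lie at 0.68 to 1.03 with intervals above 0, and the intervals of Krt7 and Krt20 include 0.

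Krt8 and Krt18 are next to each other on chromosome 15, with no other protein-coding gene between them in RefSeq, and their promoters are shown because their arrays stood in the same order. Of the 6 genes, 5 matched the RefSeq promoter table (all but Krt19), whose windows run from 250 bases before to 50 after the annotated start in build GRCm38.p6. Capitals mark TATAAA (the TATA box), the Sp/Klf motifs CACCC and, richer in G, GGGCGG, the AP-1 motif TGANTCA and, for the factor Hnf1, GTTAAT, all searched on both strands and read 5′ to 3′ along the gene. The Krt8 window is chr15:102004293-102004592 on the minus strand and the Krt18 window is chr15:102027966-102028265 on the plus strand.
Krt8: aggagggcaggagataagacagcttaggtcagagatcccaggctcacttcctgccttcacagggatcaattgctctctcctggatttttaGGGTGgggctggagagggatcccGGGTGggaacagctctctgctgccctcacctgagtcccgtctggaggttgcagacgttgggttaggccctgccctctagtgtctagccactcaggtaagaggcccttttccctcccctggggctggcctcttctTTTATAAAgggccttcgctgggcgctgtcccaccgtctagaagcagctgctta
Krt18: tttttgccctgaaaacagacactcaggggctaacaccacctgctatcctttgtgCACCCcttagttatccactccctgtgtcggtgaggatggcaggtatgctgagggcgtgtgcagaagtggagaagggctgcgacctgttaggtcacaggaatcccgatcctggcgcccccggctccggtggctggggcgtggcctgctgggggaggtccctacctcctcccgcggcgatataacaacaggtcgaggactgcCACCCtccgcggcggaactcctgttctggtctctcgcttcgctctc
The Krt8 window holds TATAAA, which overlaps the annotated start and its own reverse complement, and CACCC at 2 places on the opposite strand. The Krt18 window holds CACCC at 2 places and no TATAAA. Of all 32851 windows, 13.6% hold TATAAA and 57.5% hold CACCC. The letters GGGCGG are in 35.7% of windows, and of the 5 keratin windows the one of Krt7 holds it, at 4 places. The AP-1 letters TGANTCA, in 7.81% of windows, and the Hnf1 letters GTTAAT, in 7.10%, are in none of the 5. E-box letters (CANNTG, not in capitals) are in 72.3% of all windows, and in those of Krt8 at 3 places and Krt18 at 1. A match is a description of these letters and not a site.

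Krt19 is the type I keratin of bile duct cells and of hepatic progenitors. It read 5.34, 6.42, 6.31 and 6.01 in the 4 KO livers, against 4.77, 4.30 and 4.81 in the 3 WT livers. All 4 KO arrays lay above the floor and above all WT arrays, by 0.53 or more, while WT-103 and WT-104 lay under the floor. The mean was 6.02 ± 0.49 (SD, n = 4) in KO and 4.63 ± 0.28 (SD, n = 3) in WT, a measured difference of 1.39 ± 0.26 (SE) with a 95% interval of 0.81 to 1.98 (limma adjusted p = 0.0366). With the WT arrays raised to the floor it was at least 1.10, or at least 2.14-fold. KO-03 was the lowest KO animal here too, but KO-94, the highest for Krt8 and Krt18, came below KO-90 and KO-91. The call held without KO-03 (difference 1.62, limma adjusted p = 0.00357). It was lost without KO-90, KO-91 or KO-94 (limma adjusted p = 0.101, 0.116 and 0.0837) and without WT-27, WT-103 or WT-104 (0.101, 0.171 and 0.0788), at differences of 1.23 to 1.49. Over all probe sets the number called higher rose from 582 to 1112 without KO-03. It fell to between 172 and 404 without any of the other arrays.

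Krt7, the type II keratin that pairs with Krt19 in bile ducts, read 3.89, 5.06, 4.58 and 3.96 in the 4 KO livers, against 4.08, 3.98 and 3.93 in the 3 WT livers. KO-90 and KO-91 were the high arrays and KO-03 and KO-94 lay among the WT arrays. All 7 values were under the floor, so no fold is given; the difference was 0.37 with a 95% interval of -0.23 to 0.98 (limma adjusted p = 0.609). Without KO-90 it was 0.14. KO-90 and KO-91 were also the highest arrays for Krt19.

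Krt23 read 5.42, 5.10, 5.65 and 5.59 in the 4 KO livers, against 5.05, 4.44 and 4.79 in the 3 WT livers. The groups did not overlap, but KO-90 lay only 0.05 above WT-27. KO-90, WT-103 and WT-104 were under the floor. The mean was 5.44 ± 0.25 (SD, n = 4) in KO and 4.76 ± 0.31 (SD, n = 3) in WT, a difference of 0.68 ± 0.18 (SE) with a 95% interval of 0.26 to 1.09 (limma adjusted p = 0.131). With the WT arrays raised to the floor it was at least 0.42. KO-90 was the lowest KO animal for Krt23 and the highest for Krt19.

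Krt20 read 3.56, 3.50, 3.97 and 4.01 in the 4 KO livers, against 3.55, 3.56 and 4.14 in the 3 WT livers. The groups overlapped, all 7 arrays lay under the floor, and the 95% interval of the difference of 0.02 was -0.42 to 0.46 (limma adjusted p = 0.984). Krt20 and Krt23 are neighbouring protein-coding genes on chromosome 11.

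**Figure D3:**
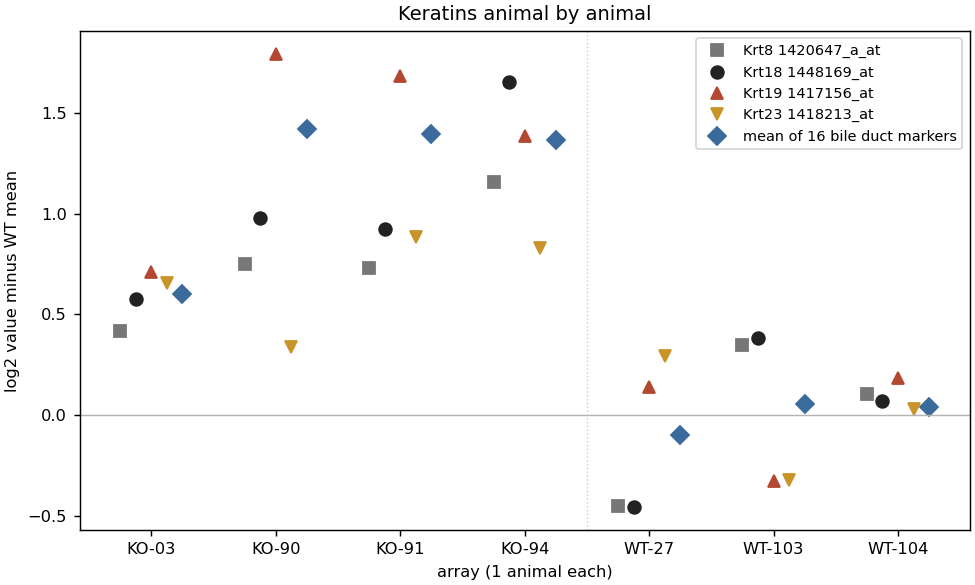
Log2 value minus the WT mean (vertical axis) in each array for Krt8, Krt18, Krt19 and Krt23 and for the mean of 16 bile duct markers; each symbol is 1 array, KO on the left. KO-94 is highest for Krt8 and Krt18 (1.16 and 1.65), KO-90 for Krt19 (1.79) and KO-91 for Krt23 (0.89).

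The 15 pairs of keratins were compared for the size of their changes by the same exact permutation test. The Krt19 change exceeded that of Krt20 by 1.38 and of Krt7 by 1.02, the Krt18 change exceeded that of Krt20 by 1.02, and the Krt23 change exceeded that of Krt20 by 0.66. These 4 pairs, with Krt18 against Krt8, reached the smallest p the design allows (exact permutation p = 0.0286, adjusted p = 0.0857), and 0 of 15 passed after adjustment, which 5 of 15 at that smallest p cannot do. The Krt19 change exceeded the Krt8 change by 0.63 and the Krt18 change by 0.36 (exact permutation p = 0.200 and 0.457). In the opposite order, Krt8 minus Krt19 was -0.29 without WT-103, and Krt18 minus Krt19 ranged from -0.66 without WT-27 to -0.0058 without WT-103, with -0.57 without KO-94, -0.21 without KO-90 and -0.23 without KO-91. Krt7 and Krt20 lie under the floor, so their pairs set a measured change against one that is not.

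**Figure D4:**
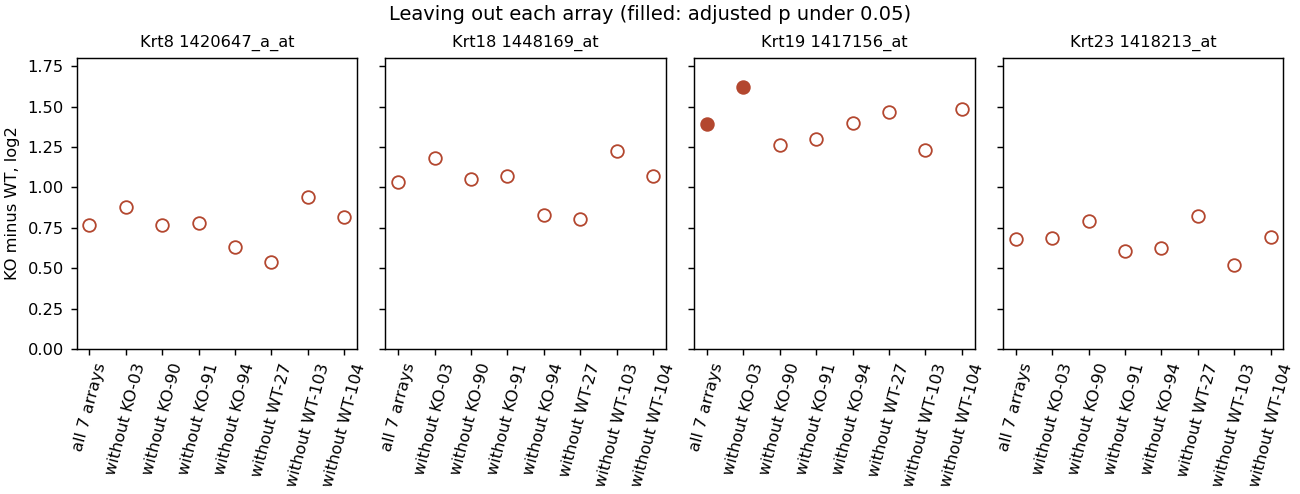
KO minus WT difference (log2, vertical axis) of Krt8, Krt18, Krt19 and Krt23 (1 probe set each) with all 7 arrays and without each array in turn; filled points passed an adjusted p under 0.05. Krt19 is filled with all arrays and without KO-03, the other points are open, and all lie above 0.

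Keratins of hair, skin and stratified epithelia were read for comparison. Of 50 probe sets for 40 other keratin genes, 0 were called in either direction at a limma adjusted p under 0.05 (1 higher and 2 lower at an unadjusted p under 0.05), and their median difference was -0.02. With 1.61% called over all probe sets, a count of 0 in 50 is near the background. At an unadjusted p under 0.05 the shares over all probe sets were 7.8% higher and 5.51% lower. KO lay above WT without overlap in 3 of the 50 and below in 3, against 7.25% and 5.53% of all probe sets. In 30 of these 40 genes the brightest probe set did not exceed the floor on any array. Krt15, Krt72, Krt35 and Krt13 had the smallest p, with differences of 0.30, -0.27, -0.30 and 0.32, all under the floor.

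Of 16 other intermediate filament genes with 38 probe sets, vimentin, Vim, the filament protein of mesenchymal cells, rose in 3 probe sets and 0 fell. These 3 calls, all of 1 gene, stand beside 1.29% called higher and 0.32% lower over all probe sets. Vim (1438118_x_at) read 8.33, 8.41, 8.45 and 8.49 in the 4 KO livers, against 7.72, 7.46 and 7.48 in the 3 WT livers. Its difference was 0.87 ± 0.11 (SE; limma adjusted p = 0.00828), and its other called probe sets differed by 1.15 and 1.23. Of the desmin probe sets, Des (1426732_at) differed by -0.49 under the floor on all arrays, and the brightest by 0.36 above it, so they disagree in direction and neither passed (limma adjusted p = 0.225 and 0.329). The list median was 0.09, and KO lay above WT without overlap in 3 of 38 probe sets and below in 1, against 7.25% and 5.53% of all probe sets. Without KO-03, 5 of its probe sets were called higher and 1 lower, and those called higher numbered 1 each without KO-90, KO-91, KO-94, WT-103 or WT-104. Over all probe sets, leaving out KO-03 raised the number called higher from 582 to 1112, and leaving out any other array lowered it to between 172 and 404.

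Among 18 genes that anchor keratin filaments, with 38 probe sets, periplakin, Ppl, a plakin that links filaments to junctions, rose and 37 probe sets did not pass. This count of 1 in 38 stands beside 1.29% called higher over all probe sets. Ppl read 6.95, 7.53, 7.61 and 7.37 in the 4 KO livers, against 5.72, 6.15 and 6.11 in the 3 WT livers. Its difference was 1.37 ± 0.18 (SE; limma adjusted p = 0.00975), close in size to that of Krt19. The desmosome proteins Dsp (desmoplakin, 1427610_at), Jup (plakoglobin) and Pkp3 (plakophilin) differed by 0.99, 0.72 and 0.62 and did not pass (limma adjusted p = 0.127, 0.132 and 0.136). The brightest probe set of Dsp differed by 0.60, so its probe sets disagree in size. The list median was 0.17, and KO lay above WT without overlap in 9 of 38 probe sets and below in 0, against 7.25% and 5.53% of all probe sets. Without KO-03 the number called higher was 5, while that over all probe sets rose from 582 to 1112.

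None of 13 genes tied to Mallory-Denk bodies and keratin handling, with 43 probe sets, passed the test (0 called by limma, with 12 higher and 3 lower at an unadjusted p under 0.05, against 7.8% and 5.51% of all probe sets). With 1.61% called over all probe sets, a count of 0 in 43 is near the background. The crosslinking enzyme transglutaminase Tgm2 (1417500_a_at) read 10.43, 11.07, 10.54 and 11.77 in the 4 KO livers, against 9.67, 9.89 and 9.61 in the 3 WT livers. KO-94 was the highest, as for Krt8 and Krt18, and the difference was 1.23 ± 0.29 (SE; limma adjusted p = 0.0891). A second Tgm2 probe set, 1426004_a_at, differed by 1.25. The brightest Tgm2 probe set differed by 0.92 (limma adjusted p = 0.159), so the Tgm2 probe sets disagree in size. Sqstm1, which encodes p62, differed by 0.61 and the small heat shock protein gene Cryab by 1.06 (limma adjusted p = 0.111 and 0.0750). The list median was 0.21, and KO lay above WT without overlap in 10 of 43 probe sets and below in 1, against 7.25% and 5.53% of all probe sets. Without KO-03, 5 were called higher, while the number over all probe sets rose from 582 to 1112.

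**Figure D5:**
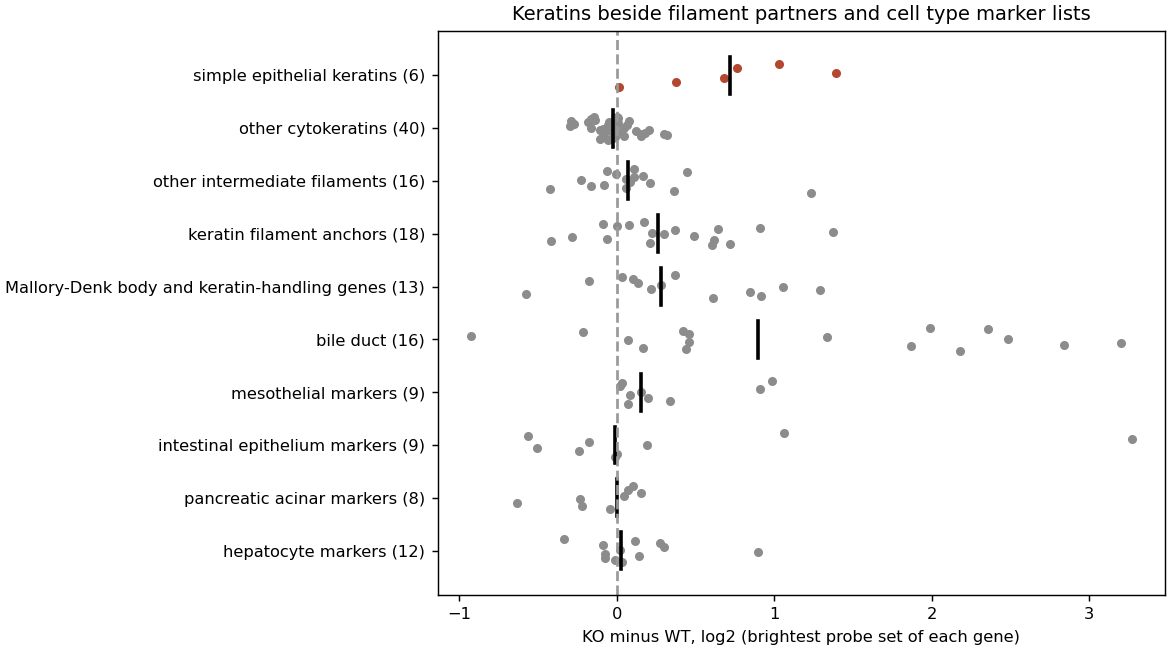
KO minus WT difference (log2, horizontal axis) of the brightest probe set of each gene; each point is a gene, rows are gene lists with the number of measured genes, black bars are medians. The 6 keratins (red, top) have a median of 0.72, the 40 other keratins -0.03, the 18 filament anchors 0.26 and the 16 bile duct markers 0.89.

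Markers of bile duct cells were read beside Krt19. Of 16 measured bile duct genes other than keratins, 7 rose in at least 1 probe set and 0 fell, or 10 of 28 probe sets, against 1.29% called higher over all. These were the surface proteins Cd24a, Epcam, Tspan8 and Prom1, the transcription factor Elf3, the glucose transporter Slc5a1 and the annexin Anxa13. The list was chosen with earlier results of these data known, so this count is a description and not a test of the markers. Cd24a (1448182_a_at) read 7.18, 8.06, 8.30 and 8.05 in the 4 KO livers, against 4.39, 5.30 and 5.48 in the 3 WT livers, a difference of at least 2.73 (limma adjusted p = 0.00439). The other called Cd24a probe sets differed by at least 2.40 (1416034_at) and at least 0.19 (1437502_x_at), so they disagree in size. In 1437502_x_at, 2 KO arrays were under the floor. Tspan8 differed by at least 1.70 (limma adjusted p = 0.00919). The Slc5a1 probe sets 1419057_at and 1455431_at differed by at least 1.15 and at least 0.16. The mean log2 value over the 16 genes was 6.03, 6.84, 6.82 and 6.79 in the 4 KO livers, against 5.33, 5.48 and 5.47 in the 3 WT livers. KO-03 was the lowest KO animal for these markers, as for Krt19. The median difference over the 28 probe sets was 0.46, and KO lay above WT without overlap in 16 and below in 1, against 7.25% and 5.53% of all probe sets. Not all markers stood higher in KO: the brightest probe sets of Onecut1, a transcription factor, and Slc4a2, an anion exchanger, differed by -0.93 and -0.21, and that of the secretin receptor Sctr by 0.07 (limma adjusted p = 0.504, 0.444 and 0.830). Slc4a2 read 6.83 to 7.03 in KO and 7.06 to 7.24 in WT livers. The brightest probe sets of the markers Sox9, Aqp1 and Cldn4 differed by 0.44, 0.42 and 0.16 and did not pass (limma adjusted p = 0.284, 0.408 and 0.705). Cftr, the chloride channel of bile duct cells, did not exceed the floor on any array, and the part of these cells in the keratin values was not tested. The number of bile duct probe sets called higher was 3 without WT-103, 5 without WT-27 or KO-91, and 6 without WT-104. It was 7 without KO-90, 9 without KO-94 and 11 without KO-03. Over all probe sets the number called higher, 582 with all arrays, was 172, 238, 219 and 293 without WT-103, WT-27, KO-91 and WT-104. Without KO-90, KO-94 and KO-03 that number was 253, 404 and 1112.

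Markers of other keratin-bearing cells were read in the same way, and their calls are to be set against the 1.61% of all probe sets that were called. Their counts at an unadjusted p under 0.05 are to be set against 7.8% higher and 5.51% lower over all probe sets. Of 9 mesothelial genes with 14 probe sets 0 passed by limma, and 3 were higher at an unadjusted p under 0.05. The mean over the list was 4.43 to 4.60 in KO and 4.17 to 4.28 in WT, and Msln, Wt1, Bnc1, Lrrn4 and Muc16 did not exceed the floor on any array. Slpi, Gpm6a (1426442_at) and Upk3b, which had the smallest p in that list, differed by 0.99, 0.51 and 0.34 (limma adjusted p = 0.205, 0.217 and 0.400). This Gpm6a probe set was under the floor on every array. The brighter one, 1456741_s_at, differed by 0.91, with overlapping groups (limma adjusted p = 0.324). It and Upk3b were each under the floor on 3 KO and 3 WT arrays. Of 9 intestinal genes, the microvillus protein villin, Vil1, rose by at least 2.26 (limma adjusted p = 0.00924) and 0 fell. Without WT-103 the number of intestinal probe sets called higher was 0, while that over all probe sets fell from 582 to 172. Tff3 and Apoa4 (1417761_at) differed by -0.56 and 1.33 and did not pass (limma adjusted p = 0.323 and 0.369), Cdx1, Cdh17 and Muc2 did not exceed the floor, and the list mean was 5.97 to 6.32 in KO and 5.66 to 5.92 in WT. Vil1, with a measured difference of 3.27, weighs on that mean, and the median difference over the 11 intestinal probe sets was -0.01. Of 8 pancreatic acinar genes 0 passed by limma and 1 probe set was lower at an unadjusted p under 0.05, with Cela1 at -0.63, Cela2a at -0.23, Ctrb1 at 0.15 and Cpb1 at -0.22, and the last 3 under the floor. The pancreatic list mean was 5.15 to 5.31 in KO and 5.20 to 5.47 in WT. Of 12 hepatocyte genes 0 passed by limma and 2 probe sets were higher at an unadjusted p under 0.05, with Tat at 0.90, Ahsg at 0.28 and Hnf4a at 0.30 and 0.40, and the list mean was 12.91 to 13.00 in KO and 12.80 to 12.93 in WT.

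The genes whose values ran most like each keratin were taken by Pearson r over the 7 arrays from 19882 probe sets with 1 gene symbol at or above the median level. Krt8 and Krt18 shared their nearest: 1700025G04Rik (r = 0.993 and 0.996), the transcription factor Batf (0.990 and 0.985) and the stress granule protein G3bp2 (0.984 and 0.983). These 3 differed by 0.59, 0.26 and 0.71 and did not pass (limma adjusted p = 0.220, 0.349 and 0.0797). Krt19 ran most like the shedding protease Adam17 (r = 0.997), the actin-binding protein Afap1 (0.992) and the monooxygenase Fmo2 (0.992), of which Afap1 and Fmo2 rose, by 1.20 and 2.67 (limma adjusted p = 0.0208 and 0.0209). Krt23 ran most like the co-chaperone Bag3 (r = 0.986), Tom1l1 (0.980) and Spint2 (0.975). For Krt7 the nearest were Ppp2r3a, Nrn1 and Rnmt (r = 0.979, 0.977 and 0.973), and for Krt20 Abhd1, Ppp1r35 and Nif3l1 (0.979, 0.977 and 0.968), with both keratins under the floor. With 7 arrays and so large a pool, such values arise readily.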

How the data were processed

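Liver RNA of 4 KO and 3 WT mice was read on Affymetrix mouse arrays. Per the submitters' processing notes, the authors made the deposited log2 values with RMA (background correction, quantile normalization, summary per probe set) in Partek, of unstated version. The table held 45101 probe sets, of which 64 controls were left out. Platform annotation named 34945 of the other 45037 by 1 symbol, and 932 had several. The number of arrays limits the precision.

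Every probe set was fitted with limma 3.58.1 (R 4.3.3; lmFit, eBayes, two-sided, no covariates; 5 residual and 3.80 prior degrees of freedom), with Benjamini-Hochberg adjustment over all 45037 and a threshold of 0.05. Groups and numbers came from the titles, and whether animals shared litters is not stated. On simulated data (5 runs, 200 changed of 45037) it recovered 60.8% of changes of 1 and 93.8% of changes of 2 on the log2 scale, with 4.20% false calls. The changed probe sets were drawn at random from all, with normal noise, so these shares do not give the recovery of a given keratin. Beside the keratins, the 4 probe sets with the smallest p in each list and the 3 most alike are named. List genes that passed, second probe sets and markers under the floor were named after their values were seen. So were Sctr, Onecut1, Slc4a2, Sox9, Aqp1, Cldn4, Alb, Eif4b and Krt78. Members, lists and the floor were chosen with earlier results of these data known.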

Additional observations from a re-analysis of the deposited data

Results flagged for a closer look

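Among 53 sets of 4 KO values, for keratin probe sets, list means and the list genes, 5 had 1 KO animal standing apart from the other 3, where chance gives about 1 in 20. None of them was a keratin probe set. The mean of the bile duct markers was 6.03 in KO-03 and 6.79 to 6.84 in the other KO livers, and Tspan8 of that list was 5.30 in KO-03. The mean of the pancreatic acinar markers was 5.15 in KO-90. KO-94 stood apart in Cela1, at 8.99, and in Apoa4 (1436504_x_at), at 12.48.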

How the results depend on the processing

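Krt8, Krt18, Krt19, Krt23 and Krt7 kept a positive difference under all alternatives that gave a value, and Krt20 turned to as low as -0.0837, with 0.210 as its highest, when single arrays were left out. The keratin probe sets called higher, 1 with all arrays, numbered 0 to 2 when single arrays were left out and 3 with array weights. They numbered 2 among probe sets whose higher genotype mean was at least 6, and 0 at an adjusted p under 0.01. Krt19 entered the filter at 6 only through its KO mean of 6.02, with a WT mean of 4.63. Its call there is therefore no added support. Krt23 passed only with array weights (limma adjusted p = 0.0498). Over all probe sets, 582 were called higher and 144 lower. Leaving out single arrays gave from 172 higher and 38 lower (without WT-103) to 1112 higher and 268 lower (without KO-03). Array weights gave 1177 and 407, an adjusted p under 0.01 gave 163 and 21, a fold of at least 2 gave 363 and 68, and the filter at 6 gave 242 lower. Of 120 pair values under alternatives 3 changed sign: the Krt8 change minus the Krt23 change ranged from -0.284 to 0.421 and that of Krt18 minus Krt23 from -0.0184 to 0.708 without single arrays. With the second highest control as floor the Krt23 bound was 0.68. Of 342 list counts 24 moved by over 1.5 times. Dim filters removed Krt7 and Krt20, and the one at 6 also Krt23. The causes were not tested. No paired analysis was possible because the animal numbers do not recur between genotypes.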

Other observations

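The genes beside the hepatocyte keratin pair on chromosome 15 were read for comparison, after their values were seen. The translation factor gene Eif4b, next to Krt18, differed by 0.15, 0.22 and 0.06 in its 3 probe sets (limma adjusted p = 0.709, 0.562 and 0.856). Krt78, next to Krt8, read 6.03, 6.19, 6.23 and 6.43 in the 4 KO livers, against 6.17, 6.00 and 6.26 in the 3 WT livers, and differed by 0.08 (limma adjusted p = 0.845).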
